A study of Mus musculus with 6 samples.

Results

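This account follows 31 mouse genes of 1 ligand and receptor system, 20 semaphorins, 9 plexins and 2 neuropilins, through 3 populations of sorted bone marrow cells. The members are all genes annotated on the array as Sema followed by a digit, Plxn followed by a, b, c or d and a digit, Nrp1 or Nrp2, and they are 31 of the 19938 genes measured. GM-BMDC, labelled dendritic cells, and GM-BMM, labelled macrophages, came from bone marrow of C57BL/6J mice aged 6 to 10 weeks and labelled male, kept in culture for 7 days, with GM-CSF at 25 ng/ml, and sorted as MHCIIhighF4/80low (GM-BMDC) or MHCIIlowF4/80high (GM-BMM). M-BMM, labelled macrophages, came from marrow of mice with the same strain, age and sex labels, grown for 7 days in 20% L cell conditioned medium as the source of M-CSF, and were sorted as positive for CD11b and for the macrophage antigen used to sort GM-BMM. Each population has 2 arrays, numbered 1 and 2 here, so the number of arrays limits the precision. The labels call them biological replicates without saying whether they came from separate animals or cultures. A p-value here thus rests on the spread between these arrays alone. That spread may be technical in M-BMM, which was not tested. In each GM-CSF population the 2 arrays differed in Y-linked RNA, as given below.

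Semaphorins are extracellular signals first known from the guidance of growing axons and later found on immune cells. Those of class 3 are secreted, those of classes 4, 5 and 6 span the membrane, and that of class 7 is held on the cell surface by a lipid anchor. Plexins are their main receptors and act on small GTPases, which set adhesion and the shape of the actin cytoskeleton. Neuropilins are co-receptors that bind class 3 semaphorins together with plexins and also bind vascular endothelial growth factors. In dendritic cells and macrophages these proteins are known for roles in T cell stimulation and in cell movement.

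The deposited values are log2 signals made with RMA, and a difference of 1 is 2-fold. The median of all values was 6.22 and the 25th percentile 5.04. A mean under 5.04 is called low here, and since the files mark no background, a low signal is not shown to lie above it. Levels of different genes come from different probes, so each gene is compared with itself across populations. A gene passed a comparison when limma, fitted to all 6 arrays, gave an adjusted p under 0.05 over all 19938 genes. Differences are given with their standard errors.

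The labels were checked first on markers. All 7 dendritic cell markers listed for this work (among them Ccr7, Zbtb46 and Dpp4) were higher in GM-BMDC than in GM-BMM, and all 7 were higher than in M-BMM. Of the 6 measured macrophage markers, 4 were lower in GM-BMDC than in GM-BMM and 3 lower than in M-BMM. The mean of the 6 lay between 9.83 and 10.64 in GM-BMDC, 11.60 and 11.78 in GM-BMM, and 11.20 and 11.29 in M-BMM. Counted in the 4, in the 3 and in this mean was Adgre1, which encodes the macrophage antigen used in the sorts. Its log2 difference in GM-BMDC was -2.31 from GM-BMM and -2.61 from M-BMM, the largest of the 6 in size. Since the cells were selected on this antigen, Adgre1 is no independent check of the labels. Of 8 neutrophil, 6 T and NK lymphocyte and 5 mast cell markers, Mpo alone passed, lower in GM-BMM than in M-BMM. The sex label was not borne out by every array. The Y-linked gene Eif2s3y read 3.94 and 8.80 in GM-BMDC, 3.66 and 9.10 in GM-BMM, and 9.32 and 9.17 in M-BMM, so the arrays numbered 1 of both GM-CSF populations lacked the high signal of the other 4. Uty and Kdm5d were low in the same 2 arrays. Xist read 11.66 and 10.68 in GM-BMDC, 11.58 and 4.93 in GM-BMM, and 4.53 and 4.80 in M-BMM, so GM-BMDC replicate 2 carried both Xist and Y-linked RNA. Results are therefore also given without both GM-CSF arrays numbered 1. That leaves 1 array in each GM-CSF population, assumed to vary like those of M-BMM. The GM-BMDC array left still carries Xist, so the exclusion does not match GM-BMDC to the other populations in Xist RNA.

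Of the 31 genes, 12 passed in at least 1 of the 3 comparisons, or 38.7%, against 20.7% of all genes. They were 5 of 20 semaphorins, 5 of 9 plexins and both neuropilins. In GM-BMDC against GM-BMM, 3 were higher and 2 lower, where 10.4% of all genes passed, 4.69% higher and 5.74% lower. In GM-BMM against M-BMM, 5 were higher and 4 lower, where 6.19% of all genes passed, 3.62% higher and 2.57% lower. GM-BMDC against M-BMM gave 8 higher and 4 lower, where 16.7% of all genes passed, 7.76% higher and 8.90% lower. The arrays of the populations compared did not overlap for 15 of the 31 genes in GM-BMDC minus GM-BMM, 17 in GM-BMM minus M-BMM and 20 in GM-BMDC minus M-BMM. Over all genes that share was 51.3% in GM-BMDC minus GM-BMM, 49.8% in GM-BMM minus M-BMM and 56.4% in GM-BMDC minus M-BMM, so arrays apart are by themselves common here. The median log2 difference of the 31 genes was -0.022, 0.019 and 0.0048 in the 3 comparisons in that order, beside 0.016, -0.020 and -0.0024 over all genes, so the genes did not move one way as a group. Without both GM-CSF arrays numbered 1, none of the differences that passed with all arrays changed direction. The comparisons share arrays in pairs, so a gene's results in them are not independent of each other.

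**Figure D1:**
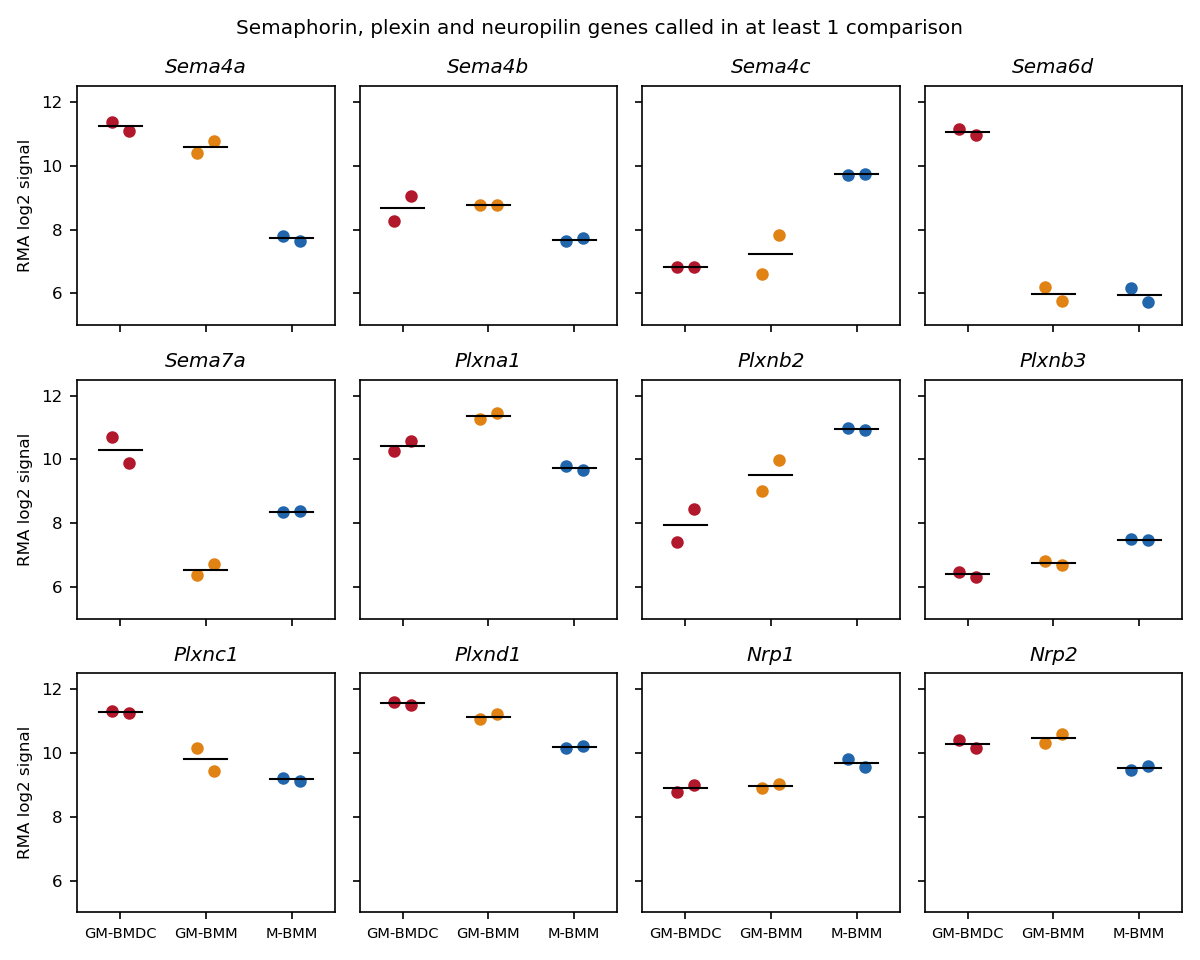
RMA log2 signal (vertical axis) of the 12 genes that passed in at least 1 comparison, for GM-BMDC, GM-BMM and M-BMM (horizontal axis); each point is 1 array and each bar the mean of 2. Sema6d stands near 11 in GM-BMDC and near 6 in both macrophage populations, and Sema4c and Plxnb2 stand highest in M-BMM.

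Sema6d, Sema7a and Plxnc1 were the 3 members that were higher in GM-BMDC than in GM-BMM, the other population grown with GM-CSF, and their promoters are shown for that reason. The 250 bases before the start of each gene, 5′ to 3′ on the gene's strand, are from RefSeq on GRCm38.p6. They are chr2:124089719-124089968 (plus strand) for Sema6d, chr9:57939862-57940111 (plus strand) for Sema7a and chr10:94944846-94945095 (minus strand) for Plxnc1. Capitals mark matches to the motifs searched.
Sema6d: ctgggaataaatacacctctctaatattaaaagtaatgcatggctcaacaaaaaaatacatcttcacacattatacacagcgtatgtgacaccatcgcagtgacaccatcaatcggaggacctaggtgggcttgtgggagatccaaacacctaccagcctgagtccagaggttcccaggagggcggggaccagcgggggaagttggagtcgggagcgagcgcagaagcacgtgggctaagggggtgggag
Sema7a: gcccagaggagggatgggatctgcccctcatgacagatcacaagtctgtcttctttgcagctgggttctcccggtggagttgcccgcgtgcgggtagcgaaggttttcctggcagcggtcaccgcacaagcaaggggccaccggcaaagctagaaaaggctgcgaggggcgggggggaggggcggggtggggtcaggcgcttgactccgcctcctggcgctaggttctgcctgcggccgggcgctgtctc
Plxnc1: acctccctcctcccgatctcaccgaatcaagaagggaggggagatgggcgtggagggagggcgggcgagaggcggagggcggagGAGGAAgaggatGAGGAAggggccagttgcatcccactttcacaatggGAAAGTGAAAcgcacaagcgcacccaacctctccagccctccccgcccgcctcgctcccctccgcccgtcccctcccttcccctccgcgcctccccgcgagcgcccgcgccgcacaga

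Both strands were searched for 5 motifs: GAGGAA, the core bound by the myeloid factor PU.1, TGANTCA for AP-1, TGACGTCA for the cyclic AMP response element, GGG, any 2 bases and TTTCC for NF-kappaB, and GAAA, any 2 bases and GAAA for interferon response elements. The Plxnc1 window held 2 copies of the PU.1 core and 1 interferon response match, and the Sema6d and Sema7a windows held none of the 5. Of all 32851 windows of this length in the table, 23.3% held the PU.1 core and 2.98% an interferon response match. Some genes have several windows. Promoters were listed for 11 of the 12 genes that passed, and 6 of the 11 held the PU.1 core in at least 1 window (Nrp1, Plxnb3, Plxnc1, Plxnd1, Sema4a and Sema4b). Over all members with a promoter, whether or not they passed, 10 of 26 genes and 12 of 37 windows held it. Of the 11, AP-1 letters were found for 1 (Sema4c) and those of the cyclic AMP response element and NF-kappaB for 0, where 6.75%, 1.55% and 1.41% of all windows held these 3 motifs. Bases G and C made up 52.4% of the Sema6d window, 66.4% of that of Sema7a and 68.8% of that of Plxnc1, beside a median of 52.4% over all windows. A second start is listed for Sema6d, and the array does not tell which start was used. A match is a run of letters and shows no binding.

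Among the ligands, Sema6d showed the largest difference of the 31 genes. It encodes a transmembrane semaphorin that signals through plexin-A1 and can itself act as a receptor. Sema6d was at 11.16 and 10.95 in GM-BMDC, against 6.20 and 5.75 in GM-BMM and 6.16 and 5.74 in M-BMM. The GM-BMDC arrays were thus far above the other 4, and the arrays of the 2 macrophage populations covered the same range. The log2 difference was 5.09 ± 0.20 against GM-BMM (34.0-fold, limma adjusted p = 4.23e-05) and 5.11 ± 0.20 against M-BMM (34.4-fold, limma adjusted p = 1.60e-05). The Sema6d signal of both macrophage populations lay under the median of all values and is not shown to lie above background, so these folds may understate the difference in RNA. Between GM-BMM and M-BMM it was 0.019 ± 0.20, with a 95% interval from -0.45 to 0.49 (limma adjusted p = 0.977). Leaving out any 1 array kept the difference between 4.86 and 5.31 against GM-BMM and between 4.89 and 5.32 against M-BMM.

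Sema7a was high in GM-BMDC and lowest in GM-BMM. The protein, the only lipid-anchored semaphorin, binds plexin-C1 and integrins that contain the beta 1 chain, and is known to stimulate monocytes. Its signal was 10.71 and 9.87 in GM-BMDC, 6.37 and 6.71 in GM-BMM, and 8.36 and 8.37 in M-BMM. The 3 populations did not overlap. GM-BMDC exceeded GM-BMM by 3.75 ± 0.26 log2 (13.5-fold, limma adjusted p = 0.00029) and M-BMM by 1.93 ± 0.26 (3.80-fold, limma adjusted p = 0.0024). GM-BMM fell below M-BMM by 3.54-fold (log2 difference -1.82 ± 0.26, limma adjusted p = 0.0071). This last call was lost without M-BMM replicate 1 (-1.83, limma adjusted p = 0.089) or M-BMM replicate 2 (-1.82, limma adjusted p = 0.0906). The GM-BMDC excess over GM-BMM was 3.17 without both GM-CSF arrays numbered 1 and 4.34 without both numbered 2.

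Some markers of B lymphocytes differed in the same comparisons. Of the 4 measured, Cd79a and Ms4a1 were higher in GM-BMDC than in both other populations, and Cd79b was lower in GM-BMDC and in GM-BMM than in M-BMM. The fourth, Pax5, did not pass and was at 6.85 and 6.28 in GM-BMDC, against 5.85 and 6.02 in GM-BMM and 6.01 and 5.96 in M-BMM. Cd79a was at 7.15 and 6.23 in GM-BMDC, against 3.99 and 4.49 in GM-BMM and 4.73 and 4.49 in M-BMM. The mean of the 4 markers was 7.34 and 6.49 in GM-BMDC, against 5.61 and 5.78 in GM-BMM and 6.47 and 6.50 in M-BMM. No B lymphocyte marker had a low mean in GM-BMDC, and 2 did in GM-BMM and 1 in M-BMM. Their part in the Sema6d and Sema7a results was not tested. In sorted populations measured in bulk, a different share of cells with a gene and a different amount of its RNA per cell cannot be told apart.

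Class 4 held 6 genes, and 3 of them separated the GM-CSF populations from M-BMM in opposite directions. Sema4a and Sema4b were higher in both GM-CSF populations and Sema4c was lower. Sema4a, which encodes a semaphorin of dendritic cells that stimulates T cells, was at 11.38 and 11.08 in GM-BMDC and 10.41 and 10.77 in GM-BMM, against 7.81 and 7.65 in M-BMM. All 4 GM-CSF arrays thus lay above both M-BMM arrays. Its excess over M-BMM was 3.50 ± 0.17 log2 in GM-BMDC (11.3-fold, limma adjusted p = 3.07e-05) and 2.86 ± 0.17 in GM-BMM (7.25-fold, limma adjusted p = 0.00015). Between GM-BMDC and GM-BMM the log2 difference was 0.64 ± 0.17, with a 95% interval from 0.25 to 1.03, just short of the threshold (limma adjusted p = 0.0535). It passed under 7 of 21 alternatives, among them the fits without GM-BMDC replicate 2 (0.80) and without GM-BMM replicate 2 (0.82), and was 0.31 without both GM-CSF arrays numbered 1 (limma adjusted p = 0.384).

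Sema4b, a transmembrane semaphorin related to Sema4a, showed a smaller difference of the same direction. Its signal was 8.28 and 9.06 in GM-BMDC and 8.77 and 8.77 in GM-BMM, against 7.65 and 7.72 in M-BMM. The GM-CSF populations overlapped, and both lay above M-BMM. The log2 difference from M-BMM was 0.98 ± 0.23 in GM-BMDC (limma adjusted p = 0.0257) and 1.08 ± 0.23 in GM-BMM (limma adjusted p = 0.036). Calls for Sema4b were fragile. The one in GM-BMDC was lost without M-BMM replicate 1 (0.95) or M-BMM replicate 2 (1.02), and the difference was 0.59 without GM-BMDC replicate 2, where it still passed. That in GM-BMM was lost when any of the 4 arrays compared was left out, though the difference stayed between 1.05 and 1.12. Without an M-BMM array, calls over all genes in both comparisons with M-BMM fell too, as given further below.

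Sema4c, whose protein is a known ligand of plexin-B2, had its high level in M-BMM. The gene was at 6.83 and 6.82 in GM-BMDC and 6.62 and 7.84 in GM-BMM, against 9.72 and 9.75 in M-BMM. The GM-BMM arrays were 1 on each side of the GM-BMDC arrays, and all 4 lay below M-BMM. The gene was 7.49-fold lower in GM-BMDC (log2 difference from M-BMM -2.91 ± 0.34, limma adjusted p = 0.0013) and 5.66-fold lower in GM-BMM (-2.50 ± 0.34, limma adjusted p = 0.0058). The GM-BMM difference was -1.89 without GM-BMM replicate 1 and -3.11 without GM-BMM replicate 2, still passing in both. It did not pass without M-BMM replicate 1 (-2.52) or M-BMM replicate 2 (-2.49). Between GM-BMDC and GM-BMM the direction hung on 1 array: -0.40 ± 0.34 over all arrays (limma adjusted p = 0.568), -1.02 without GM-BMM replicate 1 (limma adjusted p = 0.0061) and 0.21 without GM-BMM replicate 2 (limma adjusted p = 0.508).

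Sema4d passed in no comparison. It encodes a semaphorin of lymphocytes and myeloid cells that binds plexin-B1, plexin-B2 and CD72. Signals were 9.41 and 9.94 in GM-BMDC and 10.15 and 10.65 in GM-BMM, against 9.69 and 9.66 in M-BMM. GM-BMM arrays were the 2 highest. GM-BMDC minus GM-BMM was -0.72 ± 0.22 (95% interval -1.23 to -0.22, limma adjusted p = 0.0816) and GM-BMM minus M-BMM 0.72 ± 0.22 (0.22 to 1.23, limma adjusted p = 0.11). Without both GM-CSF arrays numbered 1 both differences passed, at -0.71 (limma adjusted p = 0.0304) and 0.97 (limma adjusted p = 0.0046). The first also passed at -0.99 when GM-BMDC replicate 2 was left out and at -0.97 when GM-BMM replicate 1 was, and with the replicate number as a block (limma adjusted p = 0.0408). A second Sema4d probe set, with a lower mean, stayed between 7.06 and 7.32 in all 6 arrays and did not show the GM-BMM level, so the probe sets of this gene disagree.

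The other 14 semaphorins showed no difference that passed. All 7 secreted semaphorins of class 3, the partners of the neuropilins, lay between 4.46 and 6.68 in every array, and their largest log2 difference was 0.22 in size. Sema3f, the class 3 gene with a mean above the median of all values, was at 6.68 and 6.51 in GM-BMDC, 6.50 and 6.51 in GM-BMM and 6.56 and 6.65 in M-BMM. Sema3a and Sema3d were low in all 3 populations, as was Sema5a of class 5. Sema5b lay between 5.94 and 6.18. In class 4, Sema4f lay between 5.24 and 5.69 and Sema4g between 5.16 and 5.24. In class 6, Sema6a, Sema6b and Sema6c lay between 5.47 and 7.05, with Sema6a at 6.01 and 5.87 in GM-BMDC, 5.70 and 5.47 in GM-BMM and 5.92 and 5.95 in M-BMM. Its differences, 0.36 ± 0.13 in GM-BMDC minus GM-BMM (limma adjusted p = 0.137) and -0.35 ± 0.13 in GM-BMM minus M-BMM (limma adjusted p = 0.177), did not pass. Sema6b was at 6.54 and 6.59 in GM-BMDC, 6.76 and 7.05 in GM-BMM and 6.67 and 6.83 in M-BMM, and it has 2 probe sets with identical values on every array, so the second adds nothing. Over the 18 members other than Sema4d that passed nowhere, the 95% intervals of the 3 comparisons lay within -0.66 and 0.65.

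**Figure D2:**
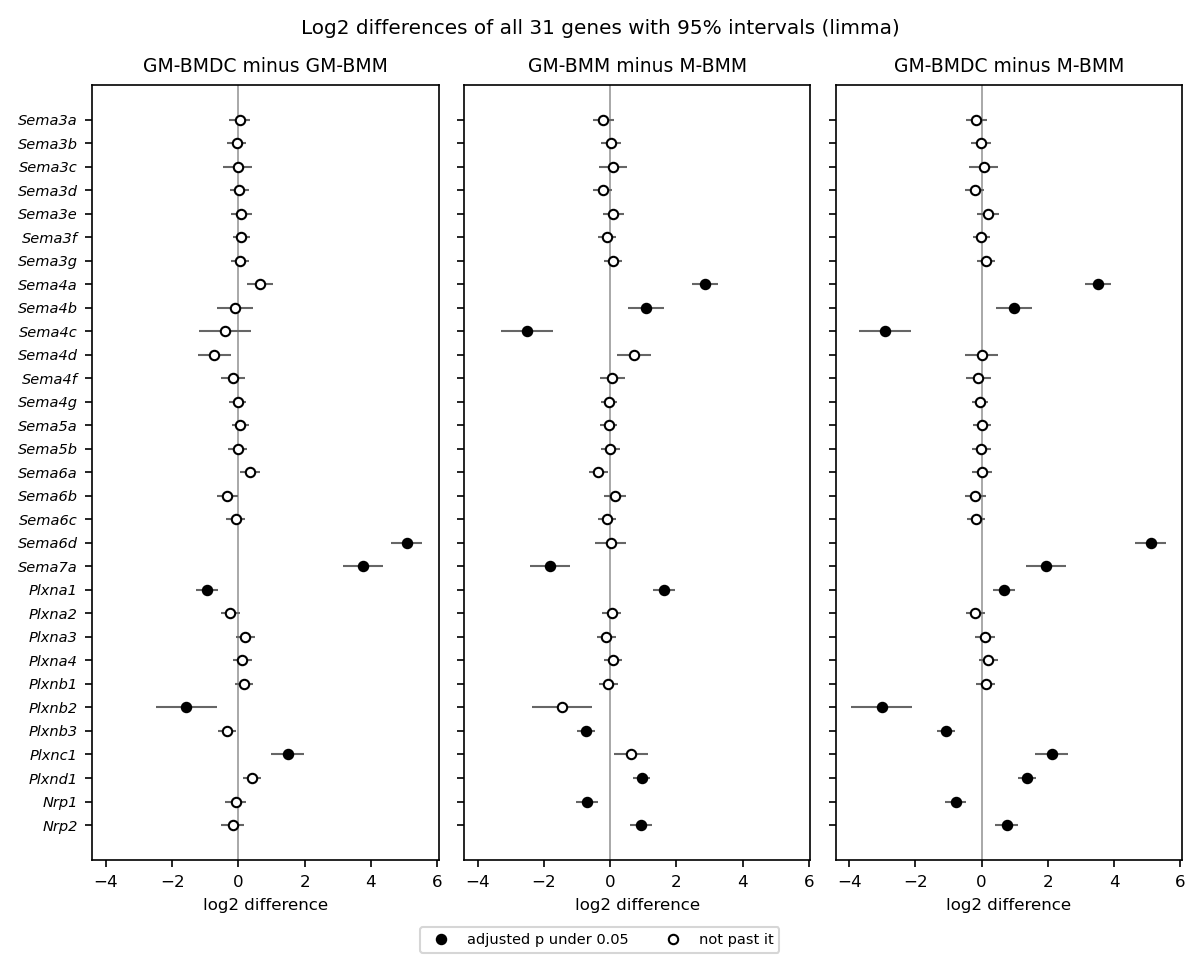
Log2 differences (horizontal axes) of all 31 genes in the 3 comparisons, 1 panel each, with 95% intervals from limma on 2 arrays a group; filled points passed at an adjusted p under 0.05. The 7 class 3 semaphorins lie near 0, with a largest difference of 0.22 in size, while Sema6d reaches 5.09 and 5.11 in the panels with GM-BMDC.

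By count, 5 of 9 plexins and 5 of 20 semaphorins passed in at least 1 comparison, beside 20.7% of all genes. Whether receptors and ligands differ in this was not tested. All 12 family genes that passed had a mean above the median of all values in at least 1 population, as did 16 of the 31. Plxna1 encodes plexin-A1, a receptor of class 6 semaphorins that in dendritic cells is known for its role in contact with T cells. It was at 10.26 and 10.57 in GM-BMDC, 11.26 and 11.44 in GM-BMM, and 9.79 and 9.67 in M-BMM. The 3 populations did not overlap, and GM-BMM were highest. GM-BMDC was 1.92-fold lower than GM-BMM (log2 difference -0.94 ± 0.14, limma adjusted p = 0.007) and 1.61-fold higher than M-BMM (0.68 ± 0.14, limma adjusted p = 0.0168), and GM-BMM was 3.08-fold higher than M-BMM (1.62 ± 0.14, limma adjusted p = 0.00088). The difference of GM-BMDC from M-BMM did not pass without GM-BMDC replicate 2 (0.53), M-BMM replicate 1 (0.75) or M-BMM replicate 2 (0.62). Calls over all genes in this comparison fell too when an M-BMM array was left out. The mean of the 4 measured markers of megakaryocytes and platelets was also highest in GM-BMM, at 9.24 and 8.60. It was 7.83 and 8.0 in GM-BMDC and 7.75 and 7.48 in M-BMM. The 4 did not go one way. Ppbp was higher in GM-BMM than in M-BMM (log2 difference 3.75 ± 0.46), and Itga2b passed in no comparison. Gp9 was lower in GM-BMM than in M-BMM (-0.73 ± 0.12, limma adjusted p = 0.0123). Pf4 was at 8.78 and 9.09 in GM-BMDC, 12.16 and 11.01 in GM-BMM, and 9.88 and 9.54 in M-BMM, and passed in both comparisons of GM-BMM. Of 7 fibroblast markers Dcn alone passed, at 5.56 and 5.68 in GM-BMDC, 7.63 and 6.94 in GM-BMM, and 6.42 and 6.03 in M-BMM. Their part in the Plxna1 result was not tested. Plxna2 was at 5.90 and 6.15 in GM-BMDC, 6.29 and 6.25 in GM-BMM and 6.24 and 6.19 in M-BMM. Plxna3, which is X-linked, and Plxna4 lay between 5.81 and 6.15, and none of these 3 passed in any comparison.

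Plxnb2, the receptor of Sema4c and one receptor of Sema4d, was lowest in GM-BMDC and highest in M-BMM. It measured 7.40 and 8.45 in GM-BMDC, 9.01 and 9.99 in GM-BMM, and 10.98 and 10.92 in M-BMM. No 2 populations overlapped, but the arrays of each GM-CSF population lay about 1 apart. In GM-BMDC it was 8.12-fold below M-BMM (-3.02 ± 0.39, limma adjusted p = 0.0021). It was 2.97-fold lower than GM-BMM (-1.57 ± 0.39, limma adjusted p = 0.0452), a call that was lost without GM-BMDC replicate 1 (-1.05), GM-BMM replicate 2 (-1.08) or either M-BMM array (limma adjusted p = 0.112, the fit of only the groups compared). GM-BMM minus M-BMM was -1.45 ± 0.39 (limma adjusted p = 0.0813). That difference passed without GM-BMM replicate 2 (-1.94), without both GM-CSF arrays numbered 1 (-0.96, limma adjusted p = 0.0051), without either GM-BMDC array (limma adjusted p = 0.0394) and with the replicate number as a block (limma adjusted p = 0.0235).

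Plxnb3, an X-linked gene whose protein is a receptor of Sema5a, was lower in both GM-CSF populations. Values were 6.46 and 6.33 in GM-BMDC and 6.82 and 6.67 in GM-BMM, against 7.49 and 7.46 in M-BMM. The log2 difference from M-BMM was -1.09 ± 0.12 in GM-BMDC (2.12-fold, limma adjusted p = 0.00091) and -0.73 ± 0.12 in GM-BMM (1.66-fold, limma adjusted p = 0.0114). The second was lost without M-BMM replicate 1 (-0.71) or M-BMM replicate 2 (-0.74). Without both GM-CSF arrays numbered 1 the differences were -1.15 in GM-BMDC and -0.80 in GM-BMM, both passing. Plxnb1, the best known receptor of Sema4d, lay between 5.81 and 6.12 and passed nowhere.

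Plxnc1 and Plxnd1 were higher in GM-BMDC than in M-BMM. Plxnc1, the plexin that binds Sema7a, was at 11.30 and 11.26 in GM-BMDC, 10.15 and 9.45 in GM-BMM, and 9.22 and 9.11 in M-BMM. It was 2.80-fold higher in GM-BMDC than in GM-BMM (log2 difference 1.48 ± 0.21, limma adjusted p = 0.0055) and 4.33-fold higher than in M-BMM (2.11 ± 0.21, limma adjusted p = 0.00073). GM-BMM minus M-BMM was 0.63 ± 0.21 (limma adjusted p = 0.155), with 0.28 without GM-BMM replicate 1 and 0.98 without GM-BMM replicate 2, where it passed (limma adjusted p = 0.0096). Plxnd1, a receptor of Sema3e and of Sema4a, was at 11.58 and 11.52 in GM-BMDC and 11.06 and 11.21 in GM-BMM, against 10.15 and 10.22 in M-BMM. Both GM-CSF populations lay above M-BMM, GM-BMDC by 1.37 ± 0.11 log2 (2.58-fold, limma adjusted p = 0.00033) and GM-BMM by 0.95 ± 0.11 (1.93-fold, limma adjusted p = 0.0034). The second was lost without M-BMM replicate 1 (0.92, limma adjusted p = 0.0521). GM-BMDC minus GM-BMM in Plxnd1 was 0.42 ± 0.11 (95% interval 0.15 to 0.68, limma adjusted p = 0.062).

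The 2 neuropilin genes differed from M-BMM in opposite directions. Nrp1 was at 8.79 and 8.99 in GM-BMDC and 8.91 and 9.03 in GM-BMM, against 9.79 and 9.54 in M-BMM. Nrp2 was at 10.40 and 10.15 in GM-BMDC and 10.31 and 10.59 in GM-BMM, against 9.46 and 9.58 in M-BMM. In each gene the GM-CSF populations overlapped and both were clear of M-BMM. Nrp1 was lower than in M-BMM by 1.72-fold in GM-BMDC (log2 difference -0.78 ± 0.14, limma adjusted p = 0.008) and by 1.62-fold in GM-BMM (-0.70 ± 0.14, limma adjusted p = 0.0277). Nrp2 was higher by 1.69-fold in GM-BMDC (0.76 ± 0.15, limma adjusted p = 0.0118) and 1.91-fold in GM-BMM (0.93 ± 0.15, limma adjusted p = 0.0107).

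The calls of these differences of under 2-fold depended on single arrays, while the differences kept their direction. In both comparisons with M-BMM, calls over all genes also fell without an M-BMM array, as given further below. For Nrp1 in GM-BMM, leaving out any of the 4 arrays compared ended the call, with log2 differences from -0.82 to -0.57, and so did leaving out both GM-CSF arrays numbered 1 (-0.64, limma adjusted p = 0.0545). The Nrp1 call in GM-BMDC was lost without M-BMM replicate 1 (-0.65, limma adjusted p = 0.0788). Nrp2 lost its call in GM-BMM without M-BMM replicate 1 (0.87) or M-BMM replicate 2 (0.99). In GM-BMDC it was lost without GM-BMDC replicate 1 (0.63), M-BMM replicate 1 (0.70) or M-BMM replicate 2 (0.82). Between GM-BMDC and GM-BMM the log2 difference was -0.084 in Nrp1 (95% interval -0.41 to 0.24) and -0.18 in Nrp2 (-0.52 to 0.17). Of 6 endothelial markers, Vwf was higher and Pecam1 lower in each GM-CSF population than in M-BMM, and the mean of the 6 was 5.78 and 5.80 in GM-BMDC, 6.12 and 5.97 in GM-BMM and 6.07 and 6.03 in M-BMM. The endothelial cadherin gene Cdh5 stayed between 5.54 and 6.00 and Tek, 1 of 2 low in every population, between 4.77 and 4.96. Their part in the neuropilin results was not tested.

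**Figure D3:**
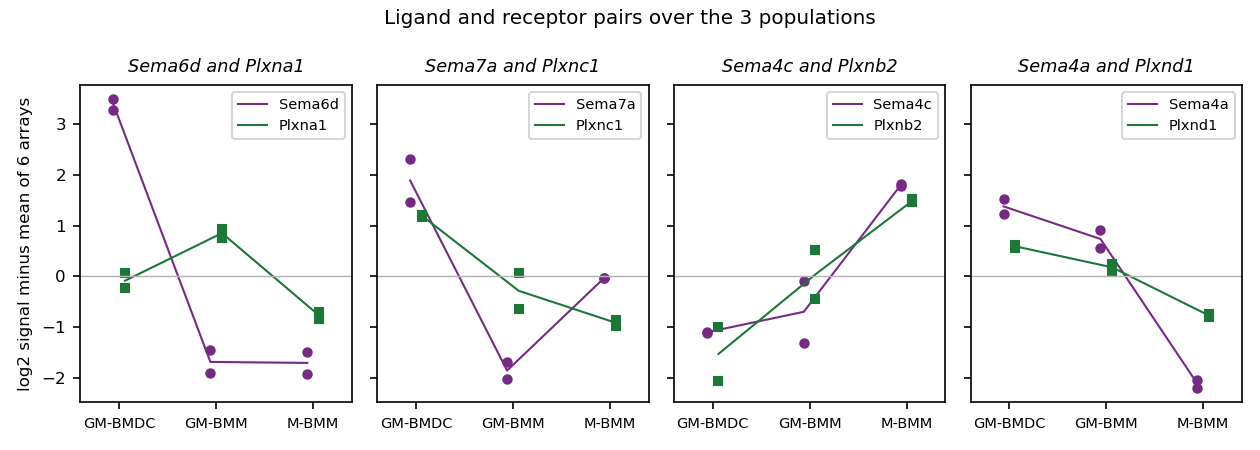
Log2 signal minus each gene's mean over 6 arrays (vertical axis) of 4 known ligand and receptor pairs in GM-BMDC, GM-BMM and M-BMM (horizontal axis); circles are arrays of the ligand gene, squares those of the receptor gene, and lines join the means of 2 arrays. Sema7a and Plxnc1 are both highest in GM-BMDC, Sema4c and Plxnb2 both highest in M-BMM, and Sema6d and Plxna1 peak in different populations.

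Set side by side as known partners, some ligands and receptors peaked in 1 population and others did not. Sema7a and Plxnc1 were both highest in GM-BMDC, and Sema4c and Plxnb2 both highest in M-BMM. Sema4a and Plxnd1 had means of 11.23 and 11.55 in GM-BMDC, 10.59 and 11.13 in GM-BMM, and 7.73 and 10.18 in M-BMM. Sema6d was highest in GM-BMDC and its receptor gene Plxna1 in GM-BMM. Sema3e, the ligand of plexin-D1, lay between 5.15 and 5.58 in all arrays. The pairs were chosen with these values known, and RNA of a partner shows neither its protein nor a contact between cells.

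Genes that work with this system were read from 5 lists, whose counts stand beside 10.4% of all genes passing in GM-BMDC minus GM-BMM, 6.19% in GM-BMM minus M-BMM and 16.7% in GM-BMDC minus M-BMM. Alternative receptors and plexin co-receptors counted 14 genes, of which 1 was higher and 0 lower in GM-BMDC than in GM-BMM, 4 and 0 in GM-BMM against M-BMM, and 3 and 1 in GM-BMDC against M-BMM, or 7.14%, 28.6% and 28.6% of the list. L1cam, an adhesion molecule that joins neuropilin-1 in receptors for Sema3a, was at 9.18 and 9.07 in GM-BMDC, against 6.98 and 6.12 in GM-BMM and 6.20 and 5.97 in M-BMM. It was 2.57 ± 0.26 log2 higher in GM-BMDC than in GM-BMM (limma adjusted p = 0.0012) and 3.04 ± 0.26 higher than in M-BMM (limma adjusted p = 0.000365). Itga1, an integrin alpha chain that pairs with beta 1 to bind Sema7a, was higher than in M-BMM by 3.84 ± 0.43 in GM-BMDC and 2.81 ± 0.43 in GM-BMM. Its M-BMM signal was low, at 4.85 and 4.98, and its GM-BMM arrays lay apart, at 8.52 and 6.94. The beta 1 gene Itgb1 passed in no comparison and lay between 10.09 and 10.47 in all arrays.

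Plexin-A1 is known to form a complex with TREM2 and its adaptor DAP12 in myeloid cells. Trem2 was at 9.51 and 10.15 in GM-BMDC and 10.60 and 10.59 in GM-BMM, against 9.71 and 9.61 in M-BMM. It was higher in GM-BMM than in M-BMM by 0.93 ± 0.20 (limma adjusted p = 0.0361), and GM-BMDC minus GM-BMM was -0.77 ± 0.20 (limma adjusted p = 0.0525). Tyrobp, which encodes DAP12, lay between 11.87 and 12.29. The Sema4d receptor gene Cd72 was lower in GM-BMDC than in M-BMM (log2 difference -1.76 ± 0.42, limma adjusted p = 0.0277). Timd2, a receptor of Sema4a, was low in all populations (4.30 to 4.65). Met, a kinase that can join plexin-B receptors, was 0.67 ± 0.13 higher in GM-BMM than in M-BMM (limma adjusted p = 0.0293), and Kdr, a receptor of vascular endothelial growth factor, 1.71 ± 0.22 higher in GM-BMM and 0.87 ± 0.22 higher in GM-BMDC than in M-BMM.

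Small GTPases and their regulators numbered 20 measured genes, of which 2 were higher and 2 lower in GM-BMDC than in GM-BMM, 1 and 1 in GM-BMM against M-BMM, and 3 and 4 in GM-BMDC against M-BMM, or 20%, 10% and 35% of the list. Rras2, a Ras-related GTPase, was at 10.43 and 9.52 in GM-BMDC, against 7.03 and 6.41 in GM-BMM and 6.11 and 5.94 in M-BMM. That was 3.26 ± 0.31 log2 above GM-BMM (limma adjusted p = 0.00094) and 3.95 ± 0.31 above M-BMM (limma adjusted p = 0.00027). The exchange factor gene Tiam1, which activates Rac, was higher in GM-BMDC by 1.47 ± 0.21 than in GM-BMM and by 2.06 ± 0.21 than in M-BMM. Mras, another Ras-related GTPase, was 1.40 ± 0.27 higher in GM-BMDC than in M-BMM. Rnd1, a GTPase that binds plexins, was lower in GM-BMDC than in GM-BMM (-1.26 ± 0.13) and higher in GM-BMM than in M-BMM (1.05 ± 0.13). Rras, a direct target of plexins, was lower in GM-BMDC than in GM-BMM (-0.68 ± 0.11). Farp2, an exchange factor of semaphorin signalling, was lower than in M-BMM in GM-BMDC (-0.85 ± 0.13) and in GM-BMM (-0.95 ± 0.13).

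Kinases and cytoskeletal effectors had 20 measured genes, of which 7 were higher and 0 lower in GM-BMDC than in GM-BMM, 2 and 1 in GM-BMM against M-BMM, and 6 and 1 in GM-BMDC against M-BMM, or 35%, 15% and 35% of the list. All 3 MICAL genes, which encode enzymes that oxidise and disassemble actin filaments, were higher in GM-BMDC than in GM-BMM, Mical1 by 0.76 ± 0.18, Mical2 by 1.13 ± 0.16 and Mical3 by 1.14 ± 0.24, and also than in M-BMM, by 1.65 ± 0.18, 1.33 ± 0.16 and 1.50 ± 0.24. Mical1 was also 0.90 ± 0.18 higher in GM-BMM than in M-BMM (limma adjusted p = 0.0296). Fyn, a kinase of plexin-A signalling, was at 9.35 and 8.89 in GM-BMDC, 6.23 and 6.02 in GM-BMM and 8.34 and 8.21 in M-BMM, the same order of populations as Sema7a. Dpysl5 of the collapsin response mediator family was 1.41 ± 0.21 higher in GM-BMDC than in GM-BMM and 1.37 ± 0.21 than in M-BMM. Plxdc1 and Plxdc2 are also counted in this list, for a domain shared with plexins, and are no plexins. Plxdc2 is among the 2 and the 6 genes higher than in M-BMM. Plxdc2 was at 12.14 and 12.45 in GM-BMDC and 12.15 and 11.60 in GM-BMM, against 6.19 and 6.15 in M-BMM. It was thus 6.12 ± 0.20 log2 higher in GM-BMDC and 5.70 ± 0.20 higher in GM-BMM than in M-BMM (limma adjusted p = 1.07e-05 and 2.17e-05).

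Of the 12 measured neuropilin partners, 0 were higher and 3 lower in GM-BMDC than in GM-BMM, 3 and 0 in GM-BMM against M-BMM, and 3 and 2 in GM-BMDC against M-BMM, or 25%, 25% and 41.7% of the list. Vegfa, the main growth factor of blood vessels, was at 9.24 and 9.14 in GM-BMDC, 10.32 and 10.44 in GM-BMM, and 8.98 and 8.68 in M-BMM. It was lower in GM-BMDC than in GM-BMM (log2 difference -1.19 ± 0.14, limma adjusted p = 0.0021) and 1.55 ± 0.14 higher in GM-BMM than in M-BMM (limma adjusted p = 0.00087). Hgf, the ligand of Met, was also lower in GM-BMDC than in GM-BMM (-1.32 ± 0.19) and higher in GM-BMM than in M-BMM (0.98 ± 0.19). Vegfb was lower in GM-BMDC than in GM-BMM (-0.63 ± 0.12) and than in M-BMM (-0.80 ± 0.12). The platelet marker Pf4 and the fibroblast marker Dcn, given beside Plxna1, were likewise highest in GM-BMM. Among the other markers of these lists, Ppbp, Itga2b, Pdgfrb and Lum were also highest there by mean. Gp9, Col1a1, Col1a2 and Col3a1 were lowest there, and Pdgfra lay between. Of these others, Ppbp and Gp9 alone passed in any comparison. The part of these markers in the Vegfa and Hgf results was not tested. Pgf, another neuropilin-1 ligand, was 3.21 ± 0.55 higher in GM-BMDC than in M-BMM, with GM-BMM arrays at 7.70 and 5.92. Of the receptors of transforming growth factor beta, which neuropilins also bind, Tgfbr1 was higher than in M-BMM in GM-BMDC (1.24 ± 0.13) and GM-BMM (0.75 ± 0.13), and Tgfbr2 was lower in GM-BMDC than in M-BMM (-1.06 ± 0.23).

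Proteases that cut semaphorins from the cell surface or process them were the last list. Of the 4, 0 were higher and 2 lower in GM-BMDC than in GM-BMM, 1 and 0 in GM-BMM against M-BMM, and 1 and 2 in GM-BMDC against M-BMM, or 50%, 25% and 75% of the list. Mmp14, a membrane protease that sheds Sema4d, was at 8.88 and 9.12 in GM-BMDC, against 10.60 and 11.26 in GM-BMM and 10.66 and 10.63 in M-BMM. The log2 difference of GM-BMDC was -1.93 ± 0.21 from GM-BMM and -1.64 ± 0.21 from M-BMM, both passing. The shedding protease gene Adam17 was lower in GM-BMDC too (-0.79 ± 0.14 from GM-BMM and -0.65 ± 0.14 from M-BMM). Furin, which processes secreted semaphorins, was higher than in M-BMM by 1.12 ± 0.18 in GM-BMDC and 0.94 ± 0.18 in GM-BMM.

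**Figure D4:**
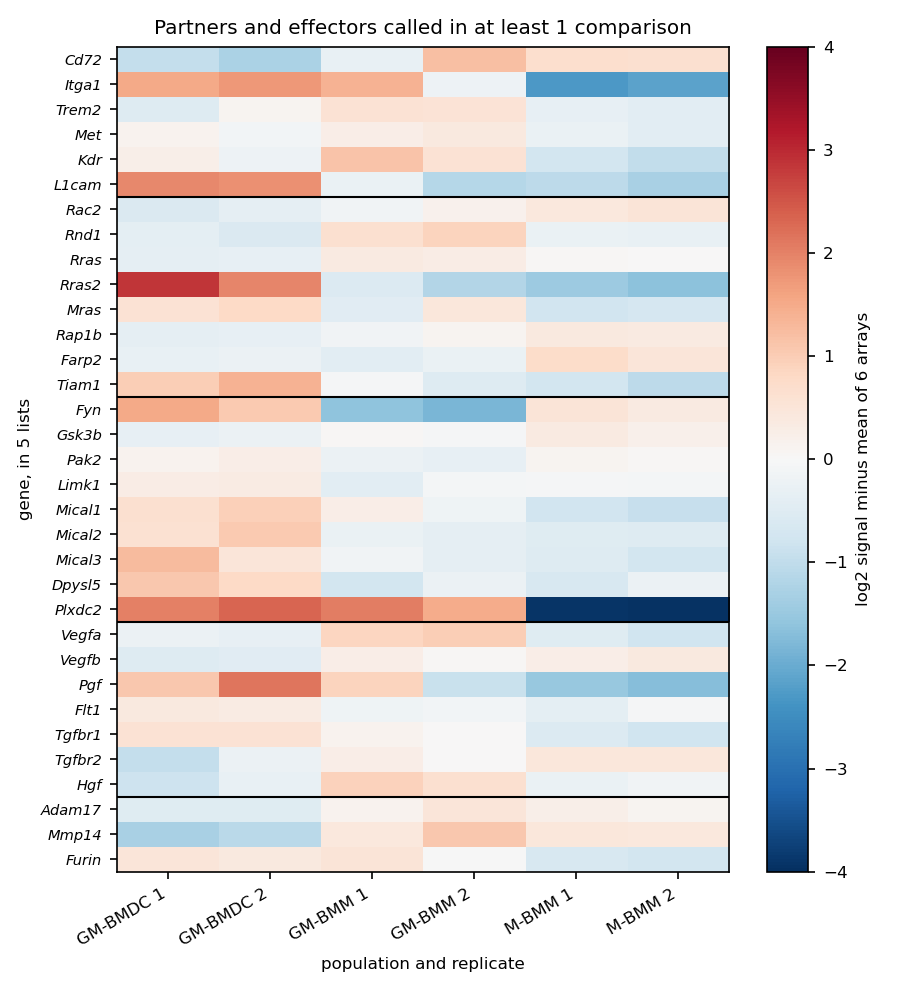
Log2 signal minus each gene's mean over 6 arrays (colour) for the 33 genes of the 5 lists that passed in at least 1 comparison; columns are the 2 arrays of GM-BMDC, GM-BMM and M-BMM, rows are genes, and black lines part the lists of alternative receptors, GTPases, effectors, neuropilin partners and proteases. Rras2, L1cam and the MICAL genes are high in GM-BMDC, and Plxdc2 is high in both GM-CSF populations.

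How far single arrays carried the 26 calls was read by leaving out each array in turn. No call changed direction. Plxnb2 in GM-BMDC minus GM-BMM ranged from -2.10 to -1.05, Sema4c in GM-BMM minus M-BMM from -3.11 to -1.89 and Sema7a in GM-BMDC minus M-BMM from 1.51 to 2.35. Without M-BMM replicate 1, 2 genes were higher and 0 lower in GM-BMM against M-BMM, and without M-BMM replicate 2, 3 and 0. The share of all genes passing in that comparison was 1.71% and 1.6% in these fits, against 6.19% with all arrays. Fewer of the 31 genes were also called higher in GM-BMDC against M-BMM when either M-BMM array was left out. The share of all genes passing in that comparison fell too.

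**Figure D5:**
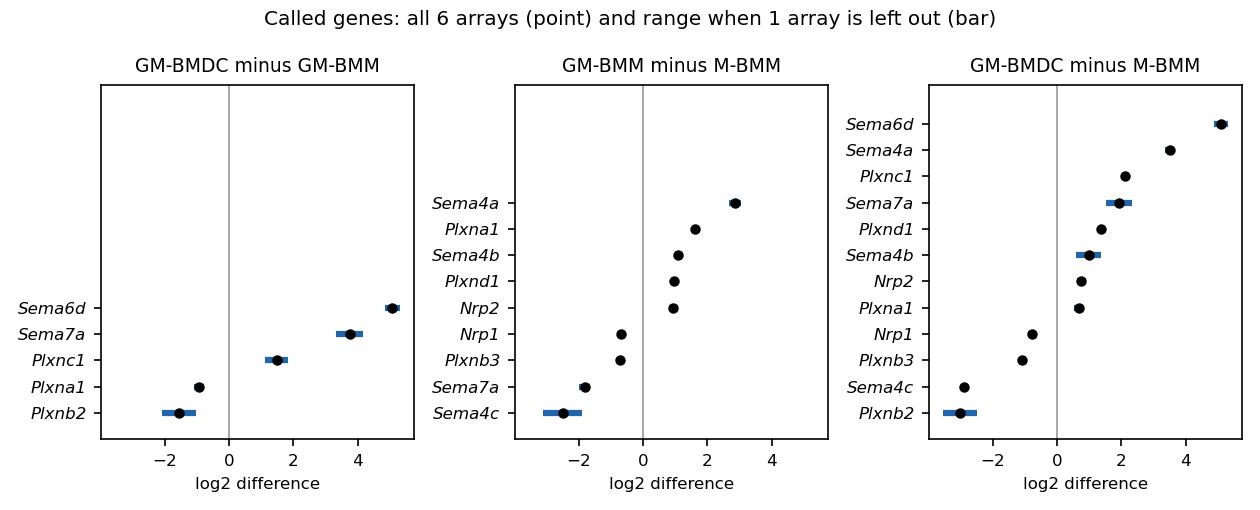
Log2 differences (horizontal axes) of the 26 calls, with 1 panel for each of the 3 comparisons; points are fits of all 6 arrays and bars the range when each array was left out in turn. Bars of Sema6d span 4.86 to 5.31 and 4.89 to 5.32, that of Sema4c in the middle panel spans -3.11 to -1.89, and no bar reaches 0.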

How the data were processed

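RNA of 6 samples, 300 ng of total RNA each, was hybridised to 1 array per sample. The deposited values are log2 signals of 35556 probe sets, made by the authors with Affymetrix Expression Console 1.1 and RMA, per the submitters' processing notes, which corrects background, equalises the arrays' distributions and summarises probes. The genome build is not given in the sources used here. The array annotation gave 1 gene for 21789 probe sets, several for 1621 and none for 12146, and the probe set with the highest mean was kept per gene.

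Comparisons used limma 3.58.1 (R 4.3.3), with the 6 arrays in 1 model (3 residual and 4.34 prior degrees of freedom), two-sided, with Benjamini-Hochberg adjustment over 19938 genes, no filter and no pseudocount. The genes and lists were chosen with earlier results of these data known. All genes of the family are accounted for, those that passed with every array. Per pathway list and comparison, the up to 3 largest differences that passed are named, with Trem2, Tyrobp, Cd72, Timd2, Itgb1 and Met in any case. Outside this rule, and chosen after their values were seen, were Rras, the markers named singly, and Mical1 and Mical2 in GM-BMDC minus GM-BMM. So were Kdr, Farp2, Vegfb, Mical2 and Dpysl5 in GM-BMDC minus M-BMM. No count of family genes passing in both comparisons of a population is given, since these share arrays. Alternatives, including arrays left out and a covariate for Y-linked RNA, are described below. Figures were made with matplotlib 3.10.9.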

Additional observations from a re-analysis of the deposited data

How the results depend on the processing

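Over 21 alternatives, and 1 more run for GM-BMDC minus M-BMM alone, 0 of the 26 calls changed direction, and 60 of the 67 differences that did not pass passed under none of them. The count of genes lower in GM-BMDC than in GM-BMM was 2 with all arrays. It was 1 with all probe sets tested, with quantile normalization of genes and with only the groups compared. A trended and robust variance and a 2-fold minimum also gave 1. Of all those tested, 10.4% passed in the main fit. With these settings, in the order named, 3.94%, 10.7%, 6.05%, 10.3% and 4.69% passed. The count higher, 3, was 5 with either filter on low values and with quantile normalization. The filters kept 28 and 16 of the 31 genes, and 14.1% and 20.3% of all genes kept passed. A 2-fold minimum left 3 higher and 2 lower in GM-BMM against M-BMM and 5 higher in GM-BMDC against M-BMM. With it 3.02% and 6.95% of all genes passed in these comparisons, beside 6.19% and 16.7% in the main fit. Without moderation of the variances in limma all 6 counts were 0, with 7, 9 and 11 genes at an unadjusted p under 0.05 in the comparisons in the order used above. Over all 19938 genes that fit called 0, 8 and 17, and 3686, 3075 and 4628 had an unadjusted p under 0.05. Leaving out 1 array gave 1 to 4 lower in GM-BMDC against GM-BMM, 2 to 5 higher and 0 to 5 lower in GM-BMM against M-BMM, and 5 to 8 higher in GM-BMDC against M-BMM. The share of all genes passing moved with the array left out too. Sema4c in GM-BMDC minus GM-BMM was -1.02 without GM-BMM replicate 1 and turned to 0.21 without GM-BMM replicate 2 and 0.21 without both GM-CSF arrays numbered 2. Same-numbered arrays did not deviate together over all genes (correlations of 0.024 between the GM-CSF populations, and with M-BMM 0.026 in GM-BMM and -0.13 in GM-BMDC), but the GM-CSF arrays of 1 number were alike in Y-linked RNA, and whether they share a source is not given in the labels. With the replicate block the counts were 3 higher and 3 lower, 5 and 5, and 8 and 4, the added calls being Sema4d and Plxnb2; every other call was as without it. Crossing the M-BMM numbers in the block, added after seeing the data, gave 8 higher and 4 lower in GM-BMDC against M-BMM. A covariate for Y-linked RNA gave 3 higher and 3 lower, 6 and 4, and 8 and 4. Of all genes, 9.85%, 5.9% and 15.3% passed with the block in the comparisons in the same order. With the covariate 11.2%, 4.51% and 10.6% passed, and with the crossed block 15.8% in GM-BMDC against M-BMM. Where no cause is shown by the setting's own construction, the cause was not tested. Groups of 2 arrays limit what can be told from spread, and signals near the 25th percentile, such as those of Sema3a, Sema3d and Sema5a, are not shown to lie above background.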
